A study of Homo sapiens with 42 samples.

Results

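Interferon-stimulated genes are the genes that cells transcribe when interferon, the antiviral cytokine, reaches its receptor. Type I and type III interferons signal through JAK1, TYK2 and a STAT complex with IRF9, which binds the interferon-stimulated response element in the promoters of these genes. Their products block viral RNA, translation, budding and entry, and the same genes are often active at a low level in tumor cells that no virus has infected. The 38 genes described here were taken from a list of such genes, and 37 of them were measured among 19775 genes on the arrays. The list was chosen with earlier results of these data known. STAT2 was not analysed here. The level of a gene was read from the probe set, annotated to that gene alone, with the highest mean over all 42 arrays.

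The arrays (Affymetrix hgu133plus2.0) fall into 14 groups of 3 and cover 7 squamous cell carcinoma lines of the head and neck (HNSCC) and 1 line of keratinocytes. Cetuximab (CTX), an antibody that blocks the ligand binding of the epidermal growth factor receptor (EGFR), was given at 100 nM for 24 h. There were 3 untreated and 3 CTX arrays for each of 3 lines without human papillomavirus (HPV), SCC61, SQ20B and SCC25, and for each of 3 lines that carry it, 93VU147T, SCC090 and SCC047. SCC1, also HPV-negative, was arrayed only with CTX, and HaCaT, an immortalized keratinocyte line, only untreated. The labels give the controls as having received no agent, whereas the paper names a PBS control for the HNSCC lines in a figure legend. The HPV status is taken from the paper and not from the labels. Each line stands for 1 tumor, or for HaCaT 1 culture of skin cells, so HPV status is compared over 3 lines against 3. No source says that the 3 arrays of a group came from separate cultures, so p-values measure only the spread between these arrays. All values are log2 probe set values, a difference of 1 is 2-fold, and the median value over all probe sets and arrays is 5.13.

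The keratin KRT5 was between 10.59 and 13.31 in the untreated lines, whereas KRT14 was at 4.85 in SQ20B and 5.77 in SCC090 against 14.20 in SCC25. Leukocyte markers had a summed level over 7 genes of 33.5 to 39.8 on untreated arrays and 33.4 to 38.6 with CTX, and 2 of them lay under the overall median in every untreated line. The defining marker PTPRC lay between 3.87 and 4.30, whereas LAPTM5 was at 7.51 in untreated SCC047, 7.35 in 93VU147T and 6.76 in SCC61, and CD14 at 6.85 in 93VU147T. In the mean of the 6 lines 3 of the 7 fell with CTX (23.1% of all genes) and none rose (22.8%), and LAPTM5 fell by 1.28 in SCC61. The 5 fibroblast markers summed to 23.0 to 33.8 untreated and to at most 36.7 with CTX. In the mean 2 were higher (22.8% of all genes) and 1 lower (23.1%). By line, 4 of the 5 were higher in SCC25 (8.66% of all genes), 3 in SCC61 (24.4%) and 2 in SQ20B (18.4%). In each of SCC047 and 93VU147T 2 were lower (19.0% and 18.8% of all genes). LUM was at 7.54 in untreated SCC25 and 9.34 with CTX, and COL1A1 rose by 1.83 in SQ20B. The difference between the 3′ and 5′ probe sets of ACTB, a sign of RNA quality, went from 0.275 to 0.564 with CTX in SQ20B, a shift of 0.289, compared to shifts of -0.002 to 0.111 in the other lines. For GAPDH the shifts were -0.027 to 0.075. The part of these markers and of RNA quality in the results was not tested. CDKN2A, whose protein p16 marks HPV-positive tumors, was at 10.91 to 12.09 in the HPV-positive lines, at 5.88 in SCC25 and 6.89 in SQ20B, but at 9.95 in HPV-negative SCC61. DUSP6, a phosphatase that ERK signaling induces, fell with CTX by 2.31 in the mean of the 6 lines (SE 0.11) and by 2.13 in SCC090 (SE 0.27). Its untreated SCC090 arrays had a standard deviation of 1.14. By line, DUSP6 fell least in SCC047, from 8.65 to 7.93, and most in SQ20B, from 9.02 to 4.47. EGR1, the other ERK target checked, fell by 2.62 in the mean. It went from 9.54 to 8.90 in SCC090, from 9.485 to 8.44 in SCC25 and from 10.245 to 5.19 in SQ20B. The arrays were scanned in batches of 35, 4 and 3, and the batch of 4 held 1 untreated SQ20B array with the SCC1 arrays. Of the untreated SCC090 arrays, replicate 1 stood apart from the other two.

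Promoter sequences of 300 bases, from 250 before to 50 after the start of transcription, were available from RefSeq (GRCh38.p14) for 30 of the 37 genes. They are shown because the letters of the response element are what these genes are known to share. The core searched was GAAA, any 2 bases, GAAA, on both strands, with overlapping matches allowed. It was found for 23 of the 30 genes (76.7%), compared to 4.38% of all 27305 genes with a promoter, and 13 of the 23 held it more than once within 1 promoter. Of the 30 genes 8 had more than 1 promoter in the table. The following stretches have the core in capitals and 9 bases on each side.

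SAMD9 (chr7:93118097-93118124, minus strand): ctgagaaatGAAACTGAAAccaaaccta
IFIT1 (chr10:89392511-89392538, minus strand): aaacctaggGAAACCGAAAggggaaagt
IFIT3 (chr10:89332469-89332496, minus strand): aggggaaagGAAAGTGAAActgatggaa
IFIT5 (chr10:89414555-89414582, minus strand): gagcgctcaGAAACTGAAActtaagaaa
ISG15 (chr1:1013381-1013408, plus strand): cgggaaaggGAAACCGAAActgaagcca
MX1 (chr21:41420560-41420587, plus strand): agcagaaatGAAACCGAAActgaattgt
OAS3 (chr12:112938322-112938349, plus strand): gaaagaaacGAAACTGAAAgcagggaat
IFI27 (chr14:94110619-94110646, minus strand): attttccagGAAACCGAAActgcagaca
GBP1 (chr1:89065317-89065344, plus strand): gagtaatatGAAACTGAAAgtacttcgt
IFITM1 (chr11:314025-314052, plus strand): cacttctgaGAAACTGAAAcgacagggg
PARP12 (chr7:140062943-140062970, plus strand): gcgggaaacGAAACCGAAAgcggccccg
HERC5 (chr4:88457036-88457063, minus strand): gctccagtgGAAAACGAAAcataatgtt

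The core read toward the gene in SAMD9, ISG15, MX1, OAS3 and IFITM1, and on the opposite strand in the others printed. In MX1 it lay 12 to 21 bases after the start site, in IFITM1 and IFIT5 it spanned the start site, and in SAMD9 it ran from position -136 to -127 relative to it. The gamma-activated site, TTC, any 3 bases, GAA, was in the promoters of 10 of the 30 genes (33.3%), compared to 9.4% of all genes. The 7 genes with no match to the response element core were OAS1, HERC6, CMPK2, IFI35, SAMD9L, IRF9 and XAF1. Over the 6 lines their median of the mean CTX change was 0.87, and that of the 23 genes with a match was 0.49. IFIT2, OAS2, OASL, MX2, IRF7, GBP2 and TRIM22 had no entry in the promoter table.

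In the mean of the 6 lines CTX raised all 37 measured genes (LIMMA, Benjamini-Hochberg adjusted p below 0.05), while 22.8% of all genes were called higher and 23.1% lower. Since the genes were chosen with earlier results of these data known, this count is a description and not an independent test. The median log2 change of the 37 was 0.57, or 1.48-fold, compared to -0.02 over all genes. The largest mean changes were those of SAMD9 and SAMD9L, neighbouring genes whose proteins restrict poxviruses, at 1.32 (SE 0.06) and 1.02 (SE 0.06). The smallest were those of HERC5 at 0.19 (SE 0.04), OASL at 0.22 (SE 0.06) and PARP12 at 0.23 (SE 0.04). These errors come from the arrays. With 1 value per line, so that the spread is that between lines, LIMMA called none of the 37 and no other gene, and 21 of the 37 had an unadjusted p under 0.05, as did 12.2% of all genes.

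The rise was far from equal between lines. In SCC61 31 genes were called higher, with a median change of 1.18, compared to 24.4% of all genes. In SCC047 it was 30 genes, with a median of 0.96 (17.3% of all genes). In SCC25 it was 29 genes, with a median of 0.64 (8.66% of all genes). SQ20B had 20, with a median of 0.42 (18.4% of all genes), and 93VU147T had 14, with a median of 0.19 (15.8% of all genes). The 93VU147T median was 0.037 without control replicate 3 and 0.32 without control replicate 1. In SCC090 LIMMA called none of the 37 in either direction, with or without a trend in the moderation, against 0.516% of all genes called higher, and the median change was 0.08. There 2 genes were higher at an unadjusted p under 0.05, as were 5.14% of all genes, and none lower. Without the untreated SCC090 replicate 1 that stood apart, the median in SCC090 was 0.025, and without its CTX replicate 2 it was 0.036. In bulk RNA, fewer expressing cells and less RNA per cell cannot be told apart.

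**Figure D1:**
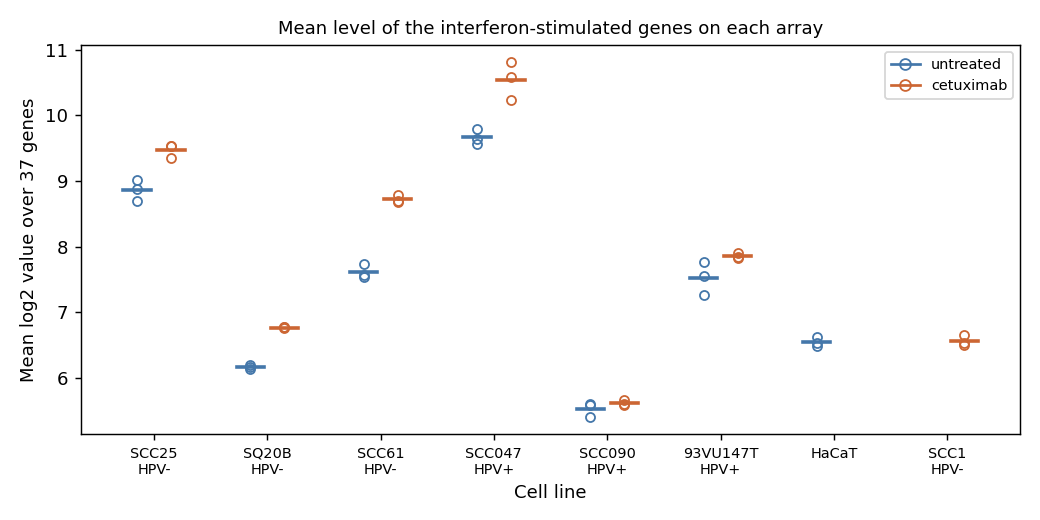
Mean log2 value over the 37 interferon-stimulated genes on each of the 42 arrays, by cell line. Circles are arrays, bars are the means of 3, blue is untreated and orange is cetuximab. The 3 cetuximab arrays lie above the 3 untreated arrays in SCC25, SQ20B, SCC61, SCC047 and 93VU147T, and in SCC090 the cetuximab arrays (5.59 to 5.67) overlap the untreated ones (5.41 to 5.61).

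On single arrays, the mean over the 37 genes ran from 7.54 to 7.74 untreated and from 8.69 to 8.79 with CTX in SCC61. In SCC047 it ran from 9.57 to 9.80 untreated and from 10.24 to 10.81 with CTX. The 93VU147T arrays came closest without overlapping, at 7.26 to 7.77 untreated and 7.83 to 7.90 with CTX. Thus the treated and untreated arrays were separate in 5 of the lines, and SCC090 was the line where they overlapped. In the test of each line against the mean of the other 5, 25 of the 37 changes were larger in SCC61 (22.6% of all genes) and 22 in SCC047 (13.7% of all genes). Conversely, 24 were smaller in SCC090 (9.67% of all genes) and 20 in 93VU147T (16.1% of all genes). In the opposite direction, 4 changes were smaller in SCC61 (15.3% of all genes), those of IFIT1, IFIT2, IFIT3 and IFIH1, and 5 in SCC047 (17.1%), those of OASL, DDX60, IRF9, GBP2 and TRIM22. None was larger in SCC090 (5.4%) and 7 were larger in 93VU147T (11.3%). In SQ20B 6 were larger (17.8%) and 12 smaller (15%), and in SCC25 2 were larger (9.36%) and 4 smaller (10.5%).

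No gene was called higher in all lines, since none was called in SCC090. SAMD9, SAMD9L, HERC6, IFIT3, PARP9 and PARP14 were called higher in each of the other 5 lines, and 0.329% of all genes were called higher in 5. A further 9 genes were called higher in 4 lines (1.61% of all genes), 15 in 3 (7.91%), 6 in 2 (15.8%) and 1, IFI27, in SCC61 alone among the tests by line (21.6% of all genes in 1 line). Whatever the test, 11 of the 37 had a change above 0 in all 6 lines, as did 2.96% of all genes. Calls in the other direction were few. In SCC047 GBP2 and DDX60 fell (19.0% of all genes were lower), in 93VU147T CMPK2 and IFITM1 fell (18.8% of all genes), and in SCC61 IFIT2 fell (19.8% of all genes). The DDX60 call was lost without either CTX replicate 1, CTX replicate 2 or control replicate 3 of SCC047, with values of -0.39, -0.30 and -0.33. The calls of CMPK2 and IFITM1 were both lost without CTX replicate 1 (-0.48 and -0.49), CTX replicate 3 (-0.45 and -0.45) or control replicate 1 (-0.40 and -0.44) of 93VU147T. That of IFITM1 was also lost without CTX replicate 2 (-0.49) or control replicate 2 (-0.48). None of the 37 fell in SCC25 or SQ20B by LIMMA, at an adjusted or an unadjusted p of 0.05 or with a trend in the moderation. With the mean of the probe sets, however, SQ20B had 1 lower call. A second OAS3 probe set changed by -0.87 in SQ20B, against -0.02 for the probe set used here.

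**Figure D2:**
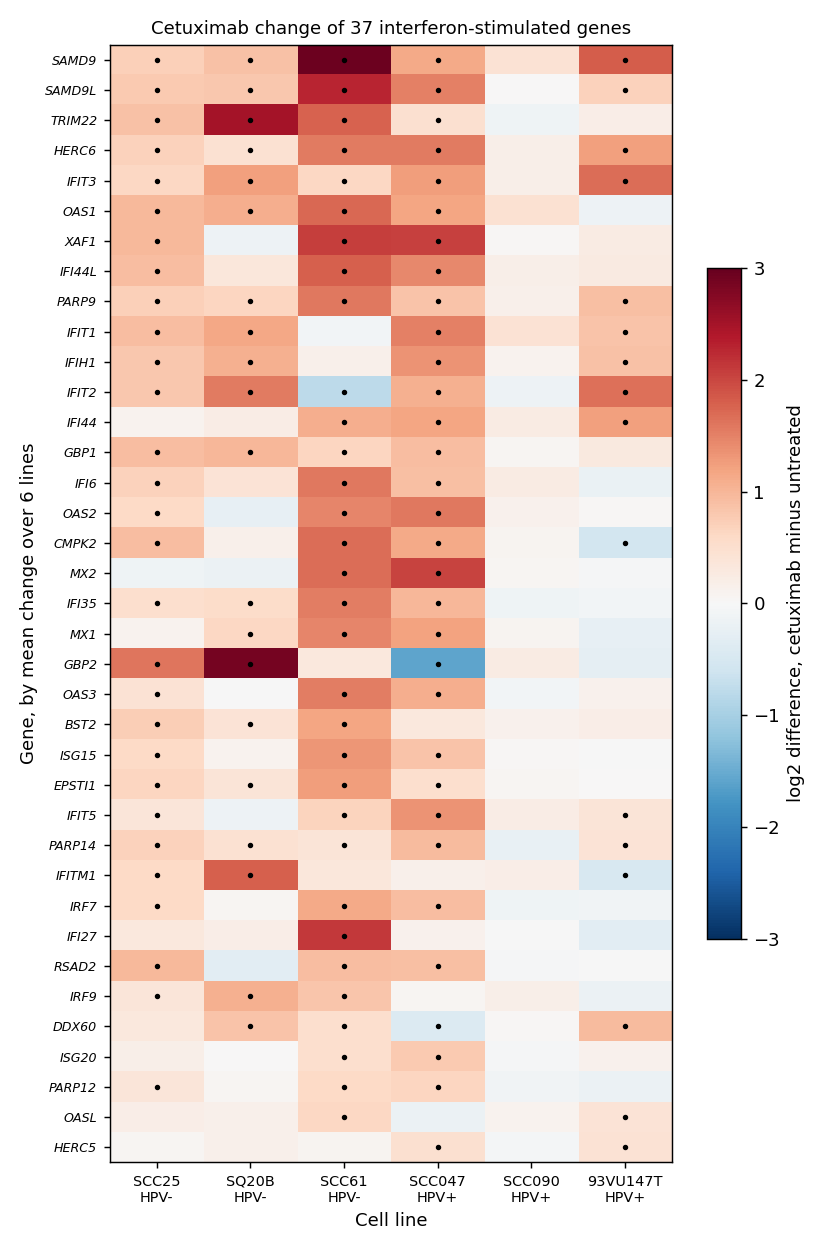
Log2 difference, cetuximab minus untreated, for the 37 genes (rows, by mean change over the 6 lines) in each line (columns). Red is higher with cetuximab, blue is lower, and a dot marks an adjusted p under 0.05. The SCC090 column holds no dot, and the strongest blue cell is GBP2 in SCC047 at -1.59.

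SAMD9 and SAMD9L led the list. SAMD9 was at 7.12, 6.91 and 7.20 on the untreated SCC61 arrays and at 9.87, 10.35 and 9.85 with CTX. In 93VU147T it went from 5.79, 5.56 and 5.42 to 7.36, 7.29 and 7.56. Neither pair of groups overlapped, and the changes were 2.95 (SE 0.14, adjusted p = 3.02e-17) and 1.81 (SE 0.14, adjusted p = 1.34e-11). In SCC25 SAMD9 was at 9.24, 9.11 and 8.97 untreated and 9.66, 9.96 and 9.85 with CTX. In SQ20B it was at 8.55, 8.47 and 8.40 against 9.50, 9.30 and 9.24, and in SCC047 at 8.81, 8.72 and 8.71 against 9.78, 9.95 and 9.91. These groups were separate too, with changes of 0.72, 0.87 and 1.13. In SCC090 the values were 5.45, 5.67 and 5.95 untreated and 6.44, 6.13 and 5.79 with CTX, so the groups overlapped there (change 0.43, SE 0.14, adjusted p = 0.135). The SCC61 change exceeded the mean of the other 5 lines by 1.95 (SE 0.15, adjusted p = 3.91e-12). SAMD9L was at 5.66, 5.40 and 5.64 on the untreated SCC61 arrays and 7.69, 8.11 and 7.75 with CTX, a change of 2.28 (SE 0.14). It was at 6.60, 6.28 and 6.47 in untreated SCC047 and 8.25, 7.96 and 7.68 with CTX. In SCC25 it was at 6.69, 6.23 and 6.16 against 7.03, 7.29 and 7.09, in SQ20B at 5.36, 5.33 and 5.22 against 6.26, 6.06 and 6.02, and in 93VU147T at 4.62, 4.78 and 4.55 against 5.14, 5.47 and 5.39. The groups did not overlap in any of these 5 lines. In SCC090 SAMD9L was at 4.14, 4.23 and 4.47 untreated and 4.13, 4.32 and 4.46 with CTX, all below the overall median of 5.13.

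The IFIT genes encode RNA-binding proteins that hold back foreign transcripts, and their order over the lines differed from that of the list. The mean change of the 4 measured genes was 1.29 in SCC047, 1.14 in 93VU147T and 0.95 in SQ20B, but 0.10 in SCC61, where the list as a whole had its largest median. IFIT2 was at 8.91, 8.72 and 8.60 in untreated SCC61 and at 7.87, 8.17 and 7.82 with CTX, and it fell by 0.79 (SE 0.12, adjusted p = 1.09e-06). In 93VU147T it was at 5.66, 5.68 and 5.52 untreated and 7.33, 7.08 and 7.38 with CTX, a rise of 1.65 (SE 0.12). The SCC61 change lay below the mean of the other 5 by 1.78 on the log2 scale (-1.78, SE 0.13, adjusted p = 7.16e-13). A second IFIT2 probe set gave -0.85 in SCC61 and 0.70 in 93VU147T. In SQ20B it gave 0.21 against 1.56 for the probe set used here. Second probe sets there gave 0.63 against 1.22 for IFIT3 and 0.02 against -0.16 for IFIT5. The SQ20B mean of 0.95 thus depends on the probe sets used. IFIT1 changed by 1.51 in SCC047 and 1.16 in SQ20B, and by -0.08 in SCC61 (adjusted p = 0.759).

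IFIT3 had one of the 2 widest ranges of untreated level, 7.81 between lines. It was at 11.45, 11.02 and 11.45 in untreated SCC047 and at 3.50, 3.52 and 3.46 in untreated SCC090. With CTX, SCC047 reached 12.78, 12.50 and 12.37, and SCC090 stayed at 3.61, 3.73 and 3.67. In 93VU147T it was at 7.33, 7.15 and 6.84 untreated and 8.79, 8.66 and 8.90 with CTX, its largest change at 1.67 (SE 0.13). In SCC25 IFIT3 was at 11.03, 10.91 and 10.65 against 11.45, 11.41 and 11.59, in SQ20B at 7.67, 8.17 and 7.58 against 9.10, 9.06 and 8.95, and in SCC61 at 9.67, 9.35 and 9.40 against 10.12, 10.09 and 10.06. In these lines, too, every CTX array lay above every untreated array. The change in SCC090 was 0.18 (adjusted p = 0.672).

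The OAS family, of which OAS1, OAS2 and OAS3 sense double-stranded RNA and activate RNase L, moved most in SCC61 and SCC047. So did the MX GTPases, which trap viral nucleocapsids. The mean change of the 4 OAS genes was 1.33 in SCC61 and 0.92 in SCC047, compared to 0.11 in 93VU147T. OAS1 had an additional rise in SQ20B (1.10, SE 0.26) and in SCC090 was at 5.27, 6.88 and 6.82 untreated and 6.72, 6.84 and 6.80 with CTX. These groups overlapped, and the SCC090 change of 0.46 (SE 0.26, adjusted p = 0.502) was -0.06 without control replicate 1. OASL, among the 3 smallest mean changes, was at 7.99, 7.74 and 7.95 in untreated SCC61 and 8.71, 8.25 and 8.60 with CTX, and at 7.31, 6.80 and 6.58 in untreated 93VU147T and 7.33, 7.30 and 7.30 with CTX. Both were called, by 0.63 and 0.41, although in 93VU147T one untreated array lay within the CTX values. In SCC047 OASL was at 11.64, 11.47 and 11.56 against 11.51, 11.38 and 11.24, in SCC25 at 9.78, 9.72 and 10.01 against 10.14, 9.92 and 10.07, in SQ20B at 5.87, 5.80 and 5.74 against 5.76, 5.95 and 6.19, and in SCC090 at 5.05, 5.25 and 4.94 against 5.27, 5.02 and 5.27. All 4 of these pairs of groups overlapped. MX1 rose by 1.46 (SE 0.15) in SCC61 and 1.21 (SE 0.15) in SCC047, and MX2 by 1.67 (SE 0.20) and 2.03 (SE 0.20).

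ISG15 is a ubiquitin-like protein that is attached to other proteins, a step for which HERC5 is the main ligase in human cells. The 3 genes of this group behaved differently from one another. HERC6 rose in 5 lines, up to 1.57 in SCC61 (SE 0.12), and ISG15 in 3, up to 1.32 in SCC61 (SE 0.19). HERC5 was at 10.19, 10.01 and 10.13 in untreated SCC047 and 10.71, 10.59 and 10.49 with CTX, and at 7.92, 7.70 and 7.63 in untreated 93VU147T and 8.20, 8.10 and 8.24 with CTX. Those were its 2 calls, at 0.49 and 0.43 (SE 0.09 each). In SCC25 HERC5 was at 7.76, 7.69 and 7.55 against 7.71, 7.70 and 7.76, in SQ20B at 4.62, 4.85 and 4.74 against 4.97, 4.70 and 4.99, in SCC61 at 7.57, 7.36 and 7.36 against 7.65, 7.37 and 7.51, and in SCC090 at 8.41, 8.41 and 8.38 against 8.32, 8.38 and 8.32. The groups overlapped in SCC25, SQ20B and SCC61. In SCC090 the change was -0.06 (adjusted p = 0.866).

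The guanylate-binding proteins, GTPases that attack intracellular pathogens, held the widest range of change. GBP2 was at 4.92, 5.18 and 4.85 in untreated SQ20B and 7.96, 7.68 and 7.88 with CTX. In SCC25 it was at 7.21, 6.99 and 6.82 against 8.66, 8.61 and 8.58. In SCC047, in contrast, it was at 7.60, 6.96 and 6.49 untreated and 5.77, 5.50 and 5.02 with CTX. The groups did not overlap in any of the 3 lines, and the changes were 2.86, 1.61 and -1.59 (SE 0.23 each, adjusted p = 1.73e-11, 5.31e-06 and 1.39e-06). The SCC047 change lay below the mean of the other 5 (-2.54, SE 0.25, adjusted p = 2.24e-09). In SCC61 GBP2 was at 6.75, 6.61 and 6.13 against 6.54, 7.14 and 6.74, in SCC090 at 4.27, 5.24 and 5.07 against 5.21, 5.23 and 4.87, and in 93VU147T at 7.86, 7.72 and 7.40 against 7.57, 7.11 and 7.50, each pair overlapping. The other GBP2 probe set changed by 1.68 in SCC25, 3.16 in SQ20B and -1.15 in SCC047. It changed by 1.32 in SCC61 and 0.41 in 93VU147T, where the probe set used here gave 0.31 and -0.26, and by 0.33 in SCC090. GBP1 rose by between 0.65 and 1.00 in SCC25, SQ20B, SCC61 and SCC047, and thus GBP1 and GBP2 changed in opposite directions in SCC047.

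TRIM22, a RING-finger ubiquitin ligase that restricts retroviruses, had the third largest mean change, 0.95 (SE 0.07), and the second widest range of change, 2.63. It was at 5.15, 5.03 and 4.96 in untreated SQ20B and 7.61, 7.61 and 7.43 with CTX, and at 8.25, 8.19 and 8.05 in untreated SCC61 and 9.96, 10.05 and 9.83 with CTX. In SCC25 it was at 9.70, 9.51 and 8.99 against 10.46, 10.05 and 10.30. These groups were separate, with changes of 2.50, 1.78 and 0.87 (SE 0.17 each). In SCC047 TRIM22 was at 10.62, 10.32 and 10.15 against 11.28, 10.89 and 10.39, an overlapping pair that was called at 0.49 (adjusted p = 0.022). In 93VU147T it was at 8.03, 7.82 and 7.34 against 7.96, 7.90 and 7.91, and in SCC090 at 3.87, 3.79 and 3.73 against 3.66, 3.67 and 3.67, and neither was called.

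**Figure D3:**
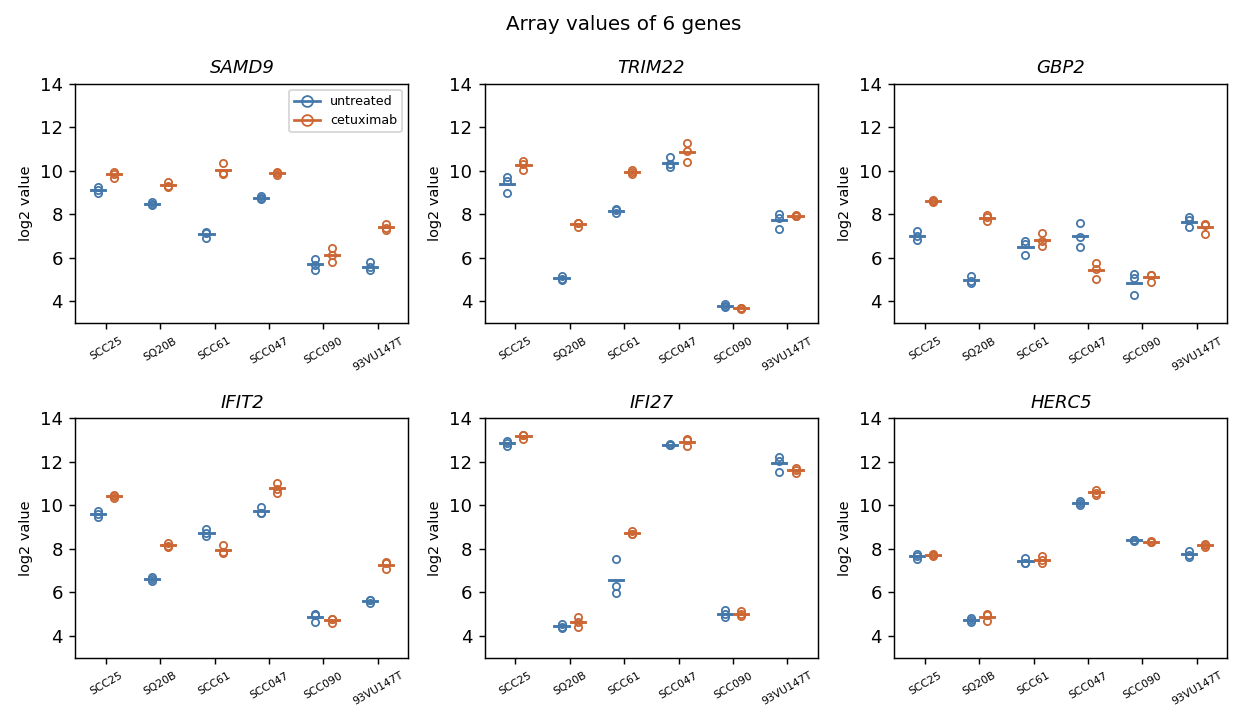
Log2 values of SAMD9, TRIM22, GBP2, IFIT2, IFI27 and HERC5 on each array of the 6 lines, 3 untreated (blue) and 3 cetuximab (orange) per line, with bars at the means. GBP2 is higher with cetuximab in SCC25 and SQ20B and lower in SCC047, and IFIT2 is lower with cetuximab in SCC61 and higher in 93VU147T.

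Among the IFI genes, whose roles are mostly in membranes and innate signaling, IFI27 stood out. It was at 12.97, 12.86 and 12.72 in untreated SCC25, at 12.82, 12.79 and 12.78 in SCC047 and at 12.23, 12.03 and 11.55 in 93VU147T. It was at 4.57, 4.37 and 4.42 in SQ20B and 4.86, 5.20 and 5.00 in SCC090, and the 8.40 between SCC25 and SQ20B was the widest range of untreated level in the list. With CTX it was at 13.24, 13.04 and 13.24 in SCC25, 13.01, 13.06 and 12.72 in SCC047, 11.64, 11.73 and 11.50 in 93VU147T, 4.65, 4.40 and 4.88 in SQ20B, and 4.91, 5.14 and 4.99 in SCC090, with no change called. SCC61 lay between, at 6.28, 5.96 and 7.53 untreated and 8.82, 8.67 and 8.68 with CTX, a rise of 2.13 (SE 0.21, adjusted p = 6.08e-10). IFI6, IFI35, IFI44 and IFI44L each rose in SCC61 and SCC047, and IFI44 also rose in 93VU147T (1.23).

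The PARP family members PARP9 and PARP14 rose in 5 lines, up to 1.59 and 0.96. A second PARP14 probe set, with a mean level of 4.955, changed only between -0.11 (SCC61) and 0.13 (SCC090). The rise of PARP14 thus rests on the probe set used here. PARP12 was at 7.49, 7.39 and 7.54 in untreated SCC61 and 8.18, 7.99 and 7.999 with CTX, at 9.47, 9.30 and 9.31 in untreated SCC047 and 10.22, 10.11 and 9.67 with CTX, and at 9.41, 9.26 and 9.32 in untreated SCC25 and 9.78, 9.54 and 9.73 with CTX. These 3 pairs did not overlap and were called at 0.59, 0.64 and 0.36. In SQ20B PARP12 was at 8.56, 8.60 and 8.60 against 8.57, 8.68 and 8.69, in SCC090 at 7.04, 7.05 and 7.07 against 6.94, 7.02 and 6.88, and in 93VU147T at 8.18, 8.14 and 7.89 against 7.85, 8.03 and 7.82. None of these was called. Of the RNA sensor IFIH1 and its helper DDX60, IFIH1 rose in SCC25, SQ20B, SCC047 and 93VU147T, whereas DDX60 fell in SCC047 (-0.41, SE 0.14) and rose by 0.95 (SE 0.14) in 93VU147T. IRF9, the DNA-binding partner in the STAT complex, rose by 1.06 in SQ20B, 0.84 in SCC61 and 0.37 in SCC25. IRF7, the factor that amplifies interferon transcription, rose in SCC25, SCC61 and SCC047. The tetherin gene BST2 rose by 1.18 in SCC61, and IFITM1, which blocks viral entry, rose by 1.79 in SQ20B and fell by 0.48 in 93VU147T.

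Which gene led therefore differed from line to line. GBP2 had the largest change in SCC25 and SQ20B, SAMD9 in SCC61 and 93VU147T, and XAF1, a proapoptotic gene, in SCC047 (2.05). Spearman's rho over the 37 changes was 0.36 between SCC25 and SQ20B, 0.32 between SCC61 and SCC047 and 0.30 between SCC047 and 93VU147T. It was -0.21 both between SQ20B and SCC61 and between SQ20B and SCC047. Over all genes rho for these pairs was, in the same order, 0.55, 0.30, 0.52, 0.05 and -0.20. These are correlations across genes, given as a description, since genes are not independent replicates. Of the 26 other probe sets of these genes, 25 had a mean change above 0, and the median over the 26 was 0.45. By the probe sets used here, 44.7% of all genes had a mean change above 0. The 25 include a PARP14 probe set at 0.008 and a GBP1 probe set at 0.086, which hardly moved. The exception, a HERC6 probe set at -0.045, had a mean level of 3.69, below the overall median.

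The untreated levels differed widely between lines. The median standard deviation of the untreated line means was 1.84 for the 37 genes and 0.34 over all genes. The mean untreated level over the 37 genes was 5.54 in SCC090, 6.17 in SQ20B, 7.53 in 93VU147T, 7.61 in SCC61, 8.87 in SCC25 and 9.67 in SCC047. SCC047 had the highest untreated level for 28 genes and SCC25 for 7. SCC090 had the lowest for 25 genes and SQ20B for 8. Shares of all genes were not computed for these extremes or for the counts below the overall median. In the test against the mean of the other 5 lines, 36 genes were higher in SCC047 (28.3% of all genes) and 1 lower (24.2%). In SCC090 36 were lower (35.3%) and 1 higher (29.3%). Below the overall median of 5.13 lay 19 genes in untreated SCC090, 11 in SQ20B, 3 in 93VU147T, 1 each in SCC61 and SCC25, and none in SCC047. HPV-positive lines thus held both ends of the order.

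**Figure D4:**
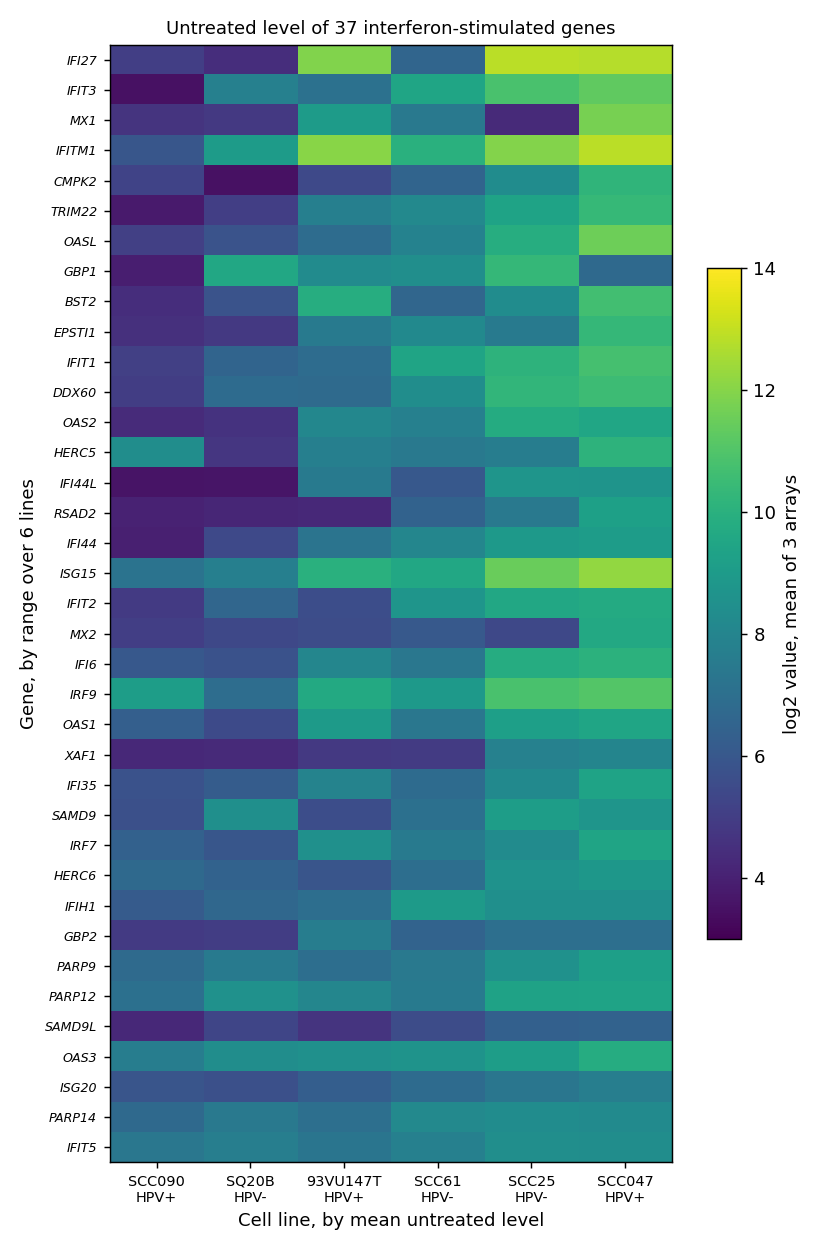
Untreated log2 value (mean of 3 arrays) of the 37 genes, rows ordered by their range over the 6 lines and columns by the mean over the genes, from SCC090 to SCC047. IFI27, with a range of 8.40, is at the top, and IFIT5, with a range of 1.17, is at the bottom.

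Neighbours in this order were compared gene by gene. In SQ20B 21 genes were higher than in SCC090 (29.2% of all genes) and 7 were lower (27.4%). Against 93VU147T, SQ20B had 21 lower (27.8%) and 10 higher (23.3%). SCC61 had 19 higher than 93VU147T (23.9%) and 13 lower (30.6%), so these 2 lines, 0.09 apart in the mean, did not stand in 1 order over the genes. SCC25 had 31 higher than SCC61 (26.1%) and 4 lower (22.9%). Compared to SCC047, 17 were lower in SCC25 (27.0%), 2 were higher (22.1%) and the other 18 were not called.

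Single genes broke the order. HERC5 was at 8.40 in untreated SCC090, above the mean of the other 5 lines by 0.86 (SE 0.07, adjusted p = 8.86e-13), and it was the one gene of the 37 that was not lower in SCC090 than in the other lines. MX1 was at 4.31, 4.14 and 4.54 in untreated SCC25, the lowest mean of the 6 lines although SCC25 was second highest over the list. Against SCC090 the difference was -0.32 and did not pass (adjusted p = 0.0826). MX1 was at 11.84, 11.57 and 11.78 in SCC047, and the difference of SCC25 from SCC047 was -7.40 (SE 0.15). MX2 was at 5.30, 5.39 and 5.42 in SCC25 against 9.90, 9.41 and 9.65 in SCC047. GBP1, in contrast, was at 10.31 in SCC25 and 6.77 in SCC047, a difference of 3.54 (SE 0.19). Among the 7 genes that were lower in SQ20B than in SCC090, IRF9 was at 6.91 and 9.12, and CMPK2 at 3.49 and 5.23.

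By HPV status, 14 genes were higher untreated in the HPV-positive lines (31.5% of all genes) and 15 lower (26.0%), with a median difference of -0.04. Under centred array medians the median difference was -0.18 and the counts were 12 and 17, with 22.6% and 50.9% of all genes. MX1 was higher by 2.94 (SE 0.09) and HERC5 by 2.14 (SE 0.05), whereas GBP1 was lower (-3.10, SE 0.11) and IFIT3 was lower (-2.08, SE 0.08). These errors are those of arrays. With lines as the unit, 1 gene, HERC5, was higher in each HPV-positive line than in each HPV-negative line (7.81% of all genes) and 1, GBP1, was lower (6.56% of all genes). Both reached 0.1 in the two-sided exact permutation test over 6 lines, the smallest p that 3 lines against 3 allow. MX1 was at 4.65 in SCC090 and 7.46 in SCC61, so the lines overlapped for it. LIMMA with 1 value per line called none of the 37, and 1 had an unadjusted p under 0.05 (8.3% of all genes).

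The CTX change was larger in the HPV-negative lines for 21 genes (22.3% of all genes) and smaller for 4 (14.9%), with a median difference of 0.36. Under centred array medians, which shifted the median of all genes by -0.13 in this comparison, the counts were 12 and 6, with 13.9% and 35.3% of all genes. GBP2 (2.13, SE 0.19) and TRIM22 (1.53, SE 0.14) differed most. IFI44, IFIT5, IFIT2 and HERC5 were the 4 with the smaller change in the HPV-negative lines. SCC090 took part in this comparison with a median change of 0.08, and SCC047 alone had a median of 0.96, above those of SCC25 and SQ20B. In the exact permutation test over lines 6 genes reached the smallest p of 0.1 for the change, namely IFI27, IRF9, BST2, IFITM1, GBP2 and TRIM22, and with 1 value per line LIMMA called none, with 4 at an unadjusted p under 0.05 (9.47% of all genes). In all 6 the HPV-negative lines lay above the HPV-positive ones, as they did for 8.66% of all genes, and in none below (7.08%). Of the 5 fibroblast markers 3 also had larger changes in the HPV-negative lines (22.3% of all genes), LUM (1.12), COL1A1 (1.07) and DCN (0.50). COL1A2 and COL3A1 were not called. LUM went from 7.54 to 9.34 in SCC25, and COL1A1 from 5.46 to 7.30 in SQ20B, so single lines weigh heavily in these differences. The part of the fibroblast markers in this comparison was not tested.

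Over the line means a low untreated level did not go with a larger rise. SCC090, the line with the lowest level (5.54), had the smallest mean change (0.09), and SCC047, the line with the highest (9.67), had the second largest (0.87). The mean changes of SQ20B, 93VU147T, SCC61 and SCC25, in order of their level, were 0.60, 0.33, 1.11 and 0.61. Over these 6 line means Pearson's r was 0.58 and Spearman's rho 0.77. Without SCC090 r was 0.26, so much of it rests on that line. Taken gene by gene, the median r over the 6 lines was 0.37, and 11 of the 37 were below 0, whereas the median over all genes was -0.58 and 85.5% were below 0.

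**Figure D5:**
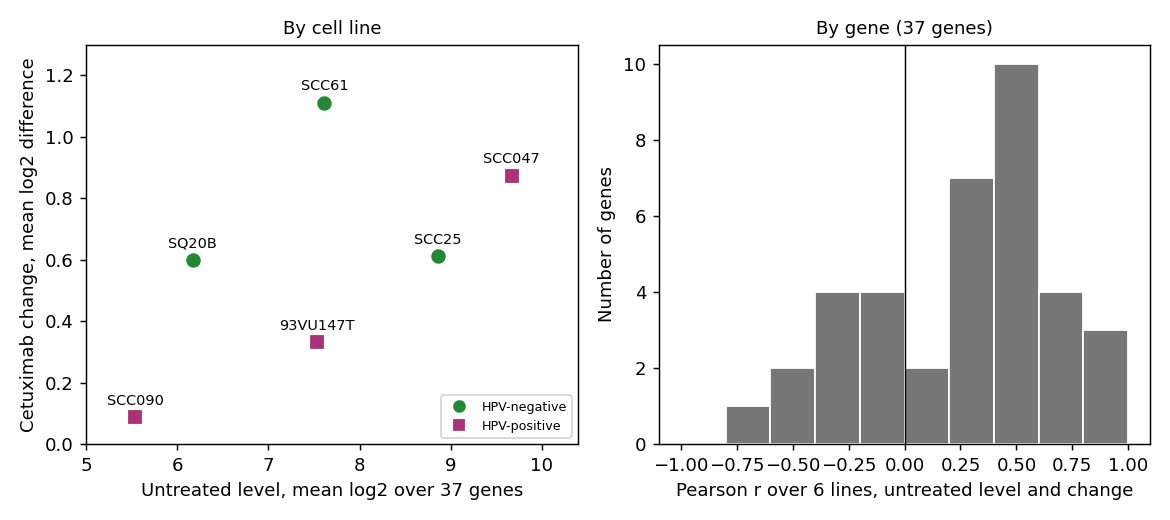
Left, mean untreated log2 level over the 37 genes (x) against their mean cetuximab change (y) for each line, with HPV-negative lines as circles and HPV-positive lines as squares. Right, histogram of Pearson's r between untreated level and change over the 6 lines for each of the 37 genes, with 11 genes below 0.

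The untreated value enters both quantities, which by itself pulls such an r below 0. With the level taken from 1 control array and the change from the other two, averaged over the 3 choices, the median r was 0.36 for the 37 genes and -0.32 over all genes. All 37 passed the filter on dim genes in at least 1 group, so that filter left the values as they were. RSAD2 (0.89), ISG20 (0.82) and MX2 (0.81) had the highest r, and IRF9 (-0.71), GBP2 (-0.51) and DDX60 (-0.41) the lowest. RSAD2 lay under the overall median in untreated SQ20B, SCC090 and 93VU147T (4.19, 4.07 and 4.25). MX2 was at 9.655 in untreated SCC047 and at 5.05 to 6.06 in the other lines. The points share arrays and normalization and are 6 in number, so these are descriptions. Within a line, across the 37 genes, r between level and change was -0.55 in SCC61, -0.46 in 93VU147T, -0.22 in SCC047, -0.06 in SCC090, 0.07 in SCC25 and 0.18 in SQ20B. Levels of different probe sets are not on 1 scale, so these values describe the probe sets as well as the genes. After CTX the lines stood further apart than before, with a median standard deviation of 2.22, and 31 of the 37 genes were more spread over the lines, as were 39.6% of all genes.

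The rest of the interferon pathway, 42 measured genes, did not move as a block. In the mean of the 6 lines 16 were higher (22.8% of all genes) and 9 lower (23.1%), with a median of 0.05. The 8 interferon genes had untreated levels of 3.08 to 5.50. IFNB1 lay between 3.74 and 4.06 and was not called in any line, and IFNE, an epithelial type I interferon, rose by 0.86 in 93VU147T (SE 0.16). IFNL1 was at 5.42 in untreated SCC047 and 4.29 to 4.66 in the others, a difference from their mean of 0.92 (SE 0.13, adjusted p = 1.66e-07). Among sensors, TLR3 rose by 0.70 (SE 0.06) and RIGI by 0.47 (SE 0.05) in the mean, and RIGI was at 9.59 in untreated SCC047 and 5.04 in SQ20B. The receptor gene IFNAR1 rose by 0.39 (SE 0.04), with 1.43 in SCC61, and IFNGR2 fell by 0.41 (SE 0.03). USP18, which removes ISG15 and restrains the receptor, rose by 1.52 in SCC047 (SE 0.16), and SOCS3 fell by 0.34 (SE 0.05). None of these was called in SCC090, where 0 of the 42 passed in either direction (0.516% of all genes were higher and 0.885% lower).

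Of 10 genes that respond mainly to interferon gamma, 1 was higher (22.8% of all genes) and 1 lower (23.1%) in the mean. CXCL10, a chemokine for T cells, fell by 1.61 in 93VU147T (SE 0.18), and CXCL11 rose by 1.55 in SCC047 (SE 0.24). Their untreated levels did not follow the order of the list. CXCL11 was at 9.35 in SCC61 and 8.06 in SCC25, but at 3.86 in SCC047.

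SCC1 and HaCaT enter no test. The mean over the 37 genes was 6.50, 6.54 and 6.66 on the 3 CTX arrays of SCC1, between the treated SCC090 and SQ20B values of 5.62 and 6.77. It was 6.54, 6.63 and 6.49 in untreated HaCaT, between SQ20B and 93VU147T. The array names mark 1 of the HaCaT arrays as a repeat of another, so these may be fewer than 3 samples. For 23 of the 37 genes at most 1 treated line was below SCC1, and for 14 at most 1 untreated line was below HaCaT. Shares of all genes were not computed for these counts, which only describe the values. SAMD9 was at 8.64, 8.69 and 8.68 in HaCaT and 8.11, 8.31 and 8.39 in SCC1. IFIT3 was at 8.57, 8.61 and 8.29 and at 7.61, 7.53 and 7.64.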

How the data were processed

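Gene expression was measured on 42 arrays, and the authors deposited log2 values normalized with fRMA. The study's methods also name pSVA for batch effects, but whether these values carry it is not given in the sources used here. Of 54675 probe sets, 41091 were annotated to 1 symbol, 1801 to several and 11721 were not listed. Array medians ran from 5.09 to 5.16, and the number of arrays limits the precision. Groups came from the labels. LIMMA 3.58.1 (R 4.3.3) was fitted to 12 group means over 36 arrays (24 residual degrees of freedom) and adjusted with Benjamini-Hochberg over 19775 genes. The fit was tested on simulated data. Summaries used pandas 2.3.3 and scipy 1.17.1. The 37 genes may all be named, with every array given for the 3 largest and 3 smallest mean changes, the 2 widest ranges of change and the 2 widest of untreated level, and IFIT2, MX1 and MX2 were added after their values were seen. Up to 12 genes of the pathway lists that passed a test could be named, and the IFNB1, IFNL1 and marker levels stand beside them. Members and lists were chosen with earlier results of these data known. Motifs were searched in RefSeq promoters. STAT2 and some genes of the other lists were not analysed here. Alternatives covered probe set choice, filtering, centring, quantile normalization, a replicate block, all arrays, moderation, a minimum change, and arrays and lines left out.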

Additional observations from a re-analysis of the deposited data

Results flagged for a closer look

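The CTX change differed between HPV-negative and HPV-positive lines by the interaction test of LIMMA for 25 of the 37 genes, with a larger change in the HPV-negative lines for 22.3% of all genes and a smaller one for 14.9%. The difference, HPV-negative minus HPV-positive, was 2.13 for GBP2, 1.53 for TRIM22, 0.95 for IFITM1, 0.94 for IFI27, 0.76 for OAS1, 0.74 for IRF9 and 0.70 for CMPK2. It was 0.61 for IFI35, 0.58 for IFI6, 0.56 for both EPSTI1 and BST2, 0.55 for SAMD9L and 0.44 for GBP1. It was 0.39 for both IFI44L and SAMD9, 0.37 for both MX1 and DDX60, 0.36 for IRF7, 0.35 for PARP9, 0.26 for OAS3 and 0.21 for PARP12. It was -0.41 for IFI44, -0.37 for IFIT5, -0.33 for IFIT2 and -0.19 for HERC5. With lines as the unit LIMMA called none of them.

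Over the 6 lines, the IFI27 change in SCC61 lay apart from the others, its gap being 0.739 of the range. The untreated MX2 level in SCC047 also lay apart, with a gap of 0.782 of the range. Both gaps pass the 95% limit of Dixon's test for 6 values, which chance passes in about 1 of 20 groups, and 37 genes were examined for both quantities.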

How the results depend on the processing

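The 37 higher calls in the mean of the lines became 22 with a minimum change of 0.5 and 0 with 1 value per line, and stayed at 37 with any array left out. The HPV-negative minus HPV-positive change had 21 higher calls, which became 12 with centred medians, 12 with a minimum change of 0.5 and 0 with 1 value per line, and its 4 lower calls became 0 with a minimum change of 0.5 and 0 with 1 value per line. With 1 value per line the untreated HPV difference kept 0 higher and 0 lower calls. The 2 lower calls in SCC047 and the 2 in 93VU147T each became 1 with centred medians and 1 with a minimum change of 0.5, and SQ20B had 1 lower call with the mean of the probe sets. OAS3 reversed in the HPV comparison of the change with the mean of the probe sets (-0.0028). The median of the untreated HPV difference, -0.04, was -0.18 with centred medians, 0.01 with the mean of the probe sets and without SCC61 control replicate 1, and 0.003 without SCC090 control replicate 1. The median mean change was 0.42 without SCC61 and 0.69 without 93VU147T. The 93VU147T median, 0.19, ran from 0.037 to 0.32 with each of its arrays left out. The cause was not tested.

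With each array left out, the higher calls ran from 20 to 29 in SCC25, 19 to 21 in SQ20B, 30 to 32 in SCC61, 29 to 30 in SCC047, 0 to 1 in SCC090 and 13 to 14 in 93VU147T. The lower calls ran from 1 to 2 in SCC047 and from 0 to 4 in 93VU147T, where they were 0 without control replicate 1 and CTX replicates 1 or 3, 1 without control or CTX replicate 2, and 4 without control replicate 3. In SCC090 the 1 call appeared without CTX or control replicate 3. For the HPV difference of the change they ran from 18 to 23 higher and 3 to 5 lower, and for the untreated HPV difference from 13 to 15 higher and 12 to 15 lower.

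Over all alternatives, 5446 of 5792 values for single genes kept their direction and call and 345 kept the direction alone. These values cover only the 220 gene results called in the main fit, so calls gained under an alternative are not counted. The filter on dim genes and the fit of all 42 arrays left the changes as they were and kept all 220, so they add little to this count. Replicate numbers did not pair the arrays: 7 of 18 pairs correlated above 0.1 (range -0.15 to 0.32), and 9 arrays correlated best with their own number. With the replicate block 31 higher calls in SCC61 became 32 and 21 in the HPV difference of the change became 22, and no other count of calls moved by over 1.5 times. The untreated HPV difference could not be fitted with the block, which takes up the lines. Centring took the median of all genes from 0.007 to -0.126 in the HPV comparison of the change, and from 0.008 to -0.134 in the untreated one. Then 22.6% of all genes were higher and 50.9% lower in untreated HPV-positive lines. In SCC61 19.9% were then higher and 33.9% lower, in SCC047 24.2% and 12.2%, in SQ20B 15.1% and 23.4%, and in 93VU147T 21.1% and 12.2%.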
